A study of Mus musculus with 2 samples.

Results

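The regions described here are the Nacc1 peaks of mouse chromosome 13, and among them those with a midpoint between 21 and 24 Mb, the stretch taken to hold the main histone gene cluster of the mouse. They were selected by position from a list of ChIP-seq peaks on the mouse genome build mm9. Chromosome 13 carried 282 of the 5942 listed peaks, of which 35 lay in the stretch and 247 on the rest of the chromosome. Because the stretch was chosen with the crowding of its peaks already known, its number of peaks, their spacing, widths and scores are given as a description, with no test.

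Nacc1 (nucleus accumbens associated 1) is a nuclear protein with a BTB/POZ domain, through which such proteins pair with each other and recruit corepressors, and a BEN domain, which can contact DNA. The replication-dependent histone genes code for the core histones H2A, H2B, H3 and H4 and the linker histone H1. They are transcribed mainly while DNA is being copied, and most of them sit side by side in clusters, of which the largest in the mouse is on chromosome 13. In the nucleus, factors for the transcription and processing of histone RNA gather at these clusters in histone locus bodies.

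The data came from N2A, an established mouse neuroblastoma line, and the labels name no treatment or genetic alteration of it. The Nacc1 ChIP library was made from about 20000000 cells fixed with 1% formaldehyde, with 4 µg of anti-Nacc1 antibody for the precipitation. An input library, made with no antibody, accompanied it, and its reads were not analysed here. Each group had 1 library, which leaves the values below without a replicate error. Intervals are 95%. Those of counts and shares cover counting error only, and those of medians treat the peaks of 1 library as independent draws. Neighbouring peaks are not independent of each other, so all these intervals are likely too narrow. Read depth was not analysed here. Each peak has a score, in which the caller's p-value of 1e-05 stands as 50 and one of 1e-10 as 100.

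Peaks were crowded in the stretch. It held 35 peaks in 3 Mb, or 11.7 per Mb (exact Poisson interval 8.13 to 16.2), against 2.17 per Mb (1.91 to 2.46) over the remaining 113.7 Mb between the first and the last peak of the chromosome, a ratio of 5.37. Thus 12.4% of the peaks of chromosome 13 fell in 2.57% of its span. Peaks covered 6.11 kb per Mb of the stretch and 1.08 kb per Mb of the rest, a ratio of 5.64. The higher density was present among peaks with a score of at least 100, with 14 in the stretch and 95 on the rest of the chromosome (4.67 against 0.84 per Mb, ratio 5.59). It was smaller at a score of at least 200, where 2 peaks in the stretch stood against 33 elsewhere on the chromosome (0.67 against 0.29 per Mb, ratio 2.30). With only 2 peaks in the stretch, this last ratio is imprecise. At scores of at least 60, 80 and 150 the ratios were 5.90, 7.39 and 3.79.

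Among windows of 3 Mb, the stretch was the fullest of chromosome 13. The other 37 windows of this chromosome had a median of 5 peaks and a range of 0 to 32. On the remaining chromosomes, 11 of 777 windows (1.42%) held 35 peaks or more, and the median was also 5. The stretch differed from these windows in its strongest peak. Its highest score was 202, while the other 26 windows with at least 25 peaks had highest scores from 342 upwards, with a median of 779. None of these 26 windows had a lower highest score than the stretch. Their median scores lay between 66.4 and 144, a range that includes the 90.6 of the stretch.

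**Figure D1:**
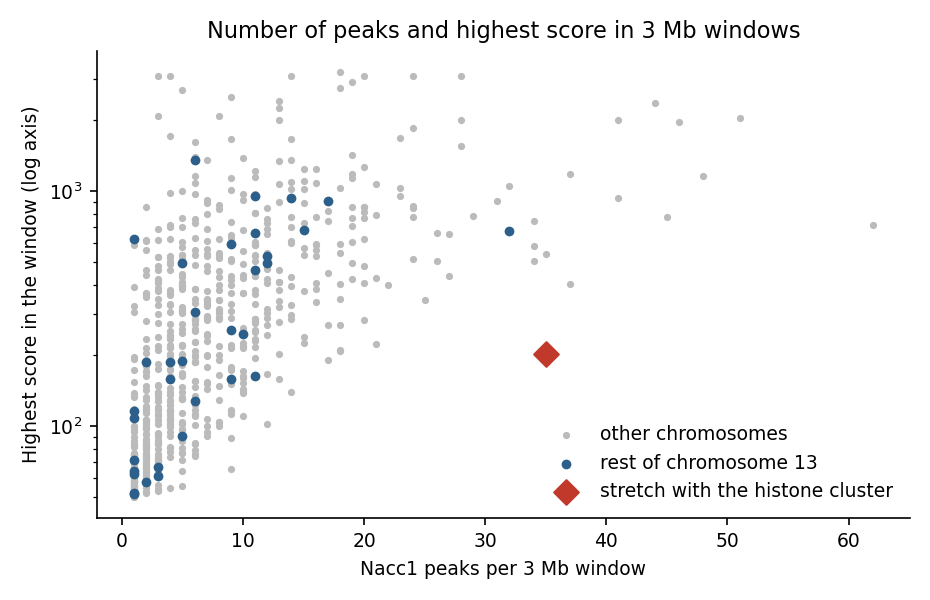
Number of Nacc1 peaks in a 3 Mb window (x axis) and the highest peak score in it (y axis, log scale). Each point is 1 window with at least 1 peak, the diamond is the stretch of chromosome 13, and it sits at 35 peaks with a highest score of 202, below all other windows with at least 25 peaks.

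The 35 peaks did not fill the stretch evenly. When runs were broken at every interval over 100 kb, 13 peaks fell into a first block of 119 kb at chr13:21807559-21926371, 2 peaks into a short piece at chr13:22127709-22135393, and 19 peaks into a last block of 218 kb at chr13:23636375-23854299. A lone peak preceded them at chr13:21263205-21263591, with a score of 81.2. Both large blocks together spanned 337 kb, or 11.2% of the stretch, and contained 32 peaks, or 91.4%. Inside them the density was 95.03 peaks per Mb. The blocks were cut from the positions of these peaks and run from first to last peak, so a high density is built in. This value cannot be set beside the density of the rest of the chromosome, where no blocks were cut. Between the short piece and the last block, 1501 kb held no peak (chr13:22135394-23636374), which is 50.03% of the stretch.

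The gene table at hand gives the order of genes on chromosome 13, but for another build, GRCm38.p6. Placing peaks at single genes needs an annotation of mm9, so no gene is named here as bound, and the position of the cluster within 21 to 24 Mb of mm9 was taken as given. No sequence of a peak is shown, since a genome of mm9 was not used here. In the order of that table, 55 of the 56 histone genes whose symbol or synonym starts with Hist1h formed 4 runs. Within a run, at most 5 other genes separated neighbours. Histone genes of other names were not counted, and a choice by name may favour genes that lie together. The 55 were 6 of H1, 14 of H2A, 15 of H2B, 9 of H3 and 11 of H4. The remaining gene, H2af-ps2, a pseudogene by its name, stood alone, 491 other genes after the fourth run. The runs held 19, 5, 29 and 2 histone genes. The first and the second run were separated by 39 other genes, of which 31 were tRNA genes. Between the second and the third run came 147 other genes, of which 75 were vomeronasal receptor genes or pseudogenes of the Vmn1r family, which code for pheromone receptors of the nose, and 46 were tRNA genes. The third and the fourth run were separated by 8 other genes. In the peak list, sets of 1, 13, 2 and 19 peaks followed each other, with the longest empty interval before the last set. These orders are set side by side and were not aligned, and whether single peaks lie at histone, tRNA or other genes was not tested. Many core histone genes of one type have similar coding sequences, and how reads that match several copies were handled is not given in the sources used here.

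**Figure D2:**
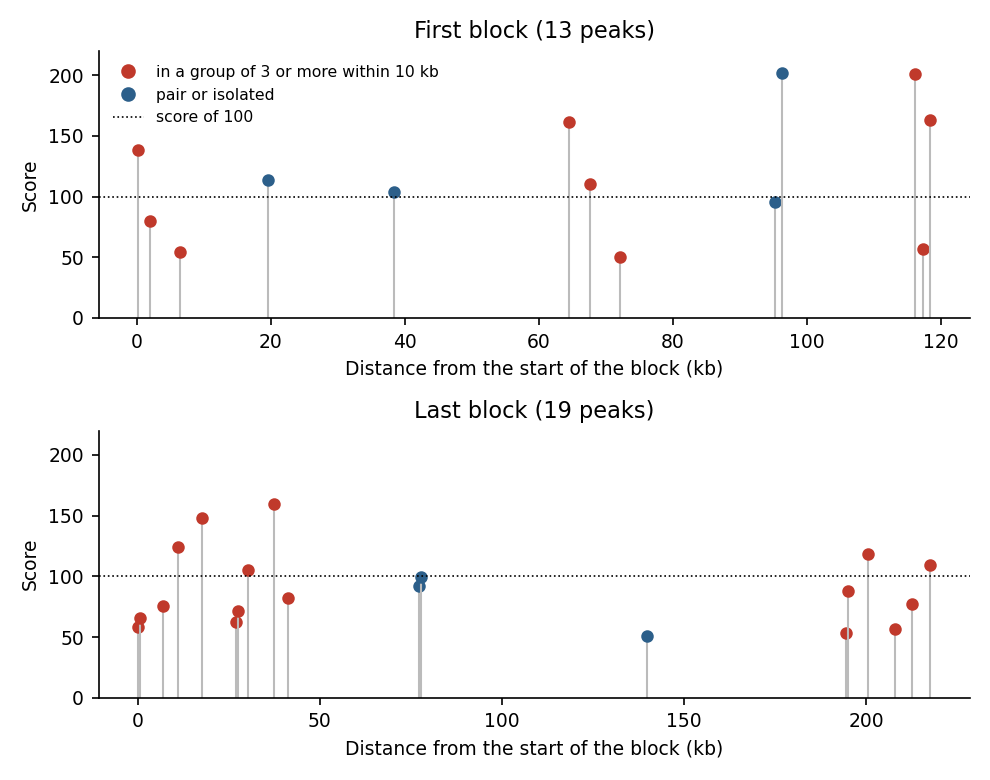
Peak scores (y axis) along the first and the last block of the stretch, plotted by distance from the start of each block in kb (x axis), with 1 stem per peak. Peaks in groups of 3 or more within 10 kb are red, and the scores reach 202 in the first block and 160 in the last.

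The first block had the higher median score. Of its 13 peaks, 8 had a score of at least 100 (61.5%), with a median of 110 and a range of 50.3 to 202. Of the 19 peaks of the last block, 6 did (31.6%), with a median of 82.4 and a range of 50.9 to 160. Over the whole list 38.4% of peaks reached 100, so the share lay above this background in the first block and below it in the last. Both blocks hold few peaks and were cut from the positions of these peaks, and the difference in shares was not tested. Median widths were 506 bp and 391 bp. The ranges of scores and widths overlapped widely between the blocks. In the stretch as a whole 14 of 35 peaks reached 100, or 40%, against 38.5% on the rest of the chromosome.

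Most peaks of the stretch stood in groups. A neighbour within 10 kb, edge to edge, was present for 31 of 35 peaks, or 88.6% (Clopper-Pearson interval 73.3% to 96.8%). On the rest of chromosome 13 this held for 56 of 247 peaks, or 22.7% (17.6% to 28.4%), and in the whole list for 28.5%. These 31 peaks made up 8 groups: 3 pairs, 3 groups of 3 peaks, 1 of 6 and 1 of 10. Outside the stretch, chromosome 13 had 28 groups, and 28 of these 28 were pairs, so that the 5 groups of 3 or more peaks of the chromosome were in the stretch. In the whole list, 161 of 722 groups had 3 or more peaks, so the rest of chromosome 13 also differed from the list in this. Groups of 4 or more held 45.7% of the peaks of the stretch and 4.07% of the whole list. None of the other 26 windows with at least 25 peaks had as high a share of peaks with a neighbour. Their shares ran from 24.1% to 63.6%, with a median of 43.0%. This holds only for windows that full, since some windows with fewer peaks had higher shares. In a 3 Mb window of chromosome 5, 12 of 13 peaks had a neighbour (92.3%), and the highest score was 2408.

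The largest group held 10 peaks within 41.4 kb in the last block. From its first to its last peak the scores were 58.1, 65.7, 75.8, 124, 148, 62.2, 71.6, 105, 160 and 82.4, and 4 of the 10 reached 100. Higher scores thus lay among lower ones, with no single peak far above the others. Of the 51 groups of 4 or more peaks in the whole list, this one included, 18 had a highest score below 200. The peak of 148, at chr13:23653445-23654410, was the widest of the stretch, at 966 bp. The peak of 160 was at chr13:23673309-23674090, with 782 bp. The intervals inside the group had a median of 3.62 kb and ran from 110 bp to 8.85 kb.

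The second largest group, of 6 peaks within 23.6 kb, ended the last block at chr13:23830658-23854299. Its scores were 53.5, 87.6, 118, 56.5, 77.3 and 109 in order of position. Of these, 2 reached 100, and the strongest was at chr13:23836612-23837229. Between the group of 10 and this one lay a pair at chr13:23713360-23714327, with scores of 91.9 and 99.7 and only 75 bp between its members, and an isolated peak with a score of 50.9.

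The groups of 3 peaks were all in the first block. That at chr13:21807559-21814160 had scores of 139, 80.2 and 54.6. That at chr13:21871508-21879759 had scores of 162, 110 and 50.3. In both, the first peak was the strongest and the last the weakest. The group at chr13:21923234-21926371 was the most compact, at 3.14 kb, and its scores of 201, 56.4 and 163 placed a weak peak between the second and the third strongest peaks of the stretch. The intervals between its members were 519 and 375 bp.

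The 10 highest scores of the stretch ran from 114 to 202, and 6 of the 10 belonged to the first block. The highest, 202, was at chr13:21903482-21904311, an 830 bp peak that formed a pair with a 481 bp peak of score 95.1, 407 bp before it. It was followed by 201 at chr13:21923234-21924178 (945 bp), 163 at chr13:21925498-21926371 (874 bp) and 162 at chr13:21871508-21872470 (963 bp). The remaining 6 of the 10 were the peaks of 160, 148, 139, 124 (chr13:23647127-23647833) and 118 already placed, and an isolated peak of 114 at chr13:21826826-21827498. The 3 widest peaks, of 966, 963 and 945 bp, were all among these 10.

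The strongest peaks of the rest of the chromosome had higher scores than those of the stretch. The 5 highest scores there were 1356 at chr13:93258794-93260374, 951 at chr13:110612630-110614383, 930 at chr13:52052448-52053834, 910 at chr13:99206579-99207511 and 679 at chr13:60630399-60631041. Of these 5, 1 had a neighbour within 10 kb, the peak of 951, a share near the 22.7% of all 247 peaks there. Scores above the highest of the stretch were listed for 33 of the 247 peaks outside it (13.4%) and for 922 of the 5942 peaks of the whole list (15.5%).

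Short intervals dominated the spacing. The median distance from a peak to the next was 5.33 kb over the 34 distances in the stretch (interval of the median 3.24 to 12.7 kb) and 122 kb over the 245 distances on the rest of the chromosome (86.1 to 166 kb). Quartiles were 2.28 and 18.7 kb in the stretch and 33.7 and 426 kb elsewhere. At most 10 kb separated 67.6% of consecutive peaks in the stretch and 11.4% outside it. Intervals of at most 1 kb numbered 7 in the stretch, or 20.6% of its distances, and 9 on the rest of the chromosome, or 3.67%. The shortest were 75 bp in the stretch and 1 bp elsewhere. Whether peaks so close together are separate sites was not tested. With peaks within 1 kb merged, 28 remained in the stretch, or 9.33 per Mb, against 2.09 per Mb elsewhere. With each group within 10 kb counted as 1 site, a setting chosen after seeing the data, 12 sites remained, or 4.00 per Mb against 1.93 per Mb, so the ratio of densities fell from 5.37 to 2.08.

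**Figure D3:**
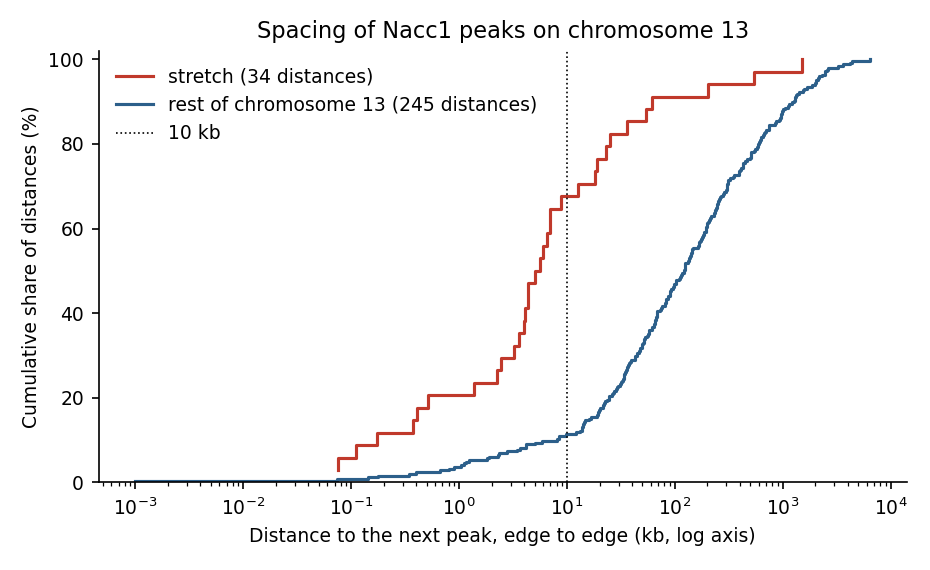
Cumulative share of distances between consecutive peaks (y axis, %) against the distance in kb (x axis, log scale), for the stretch and for the rest of chromosome 13. At 10 kb, marked by the dotted line, the curve of the stretch has reached 67.6% and that of the rest 11.4%.

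The scores of the stretch spanned a narrower range than those of the rest of the chromosome. Their median was 90.6 (interval of the median 77.3 to 109), with quartiles of 68.7 and 116. On the rest of the chromosome it was 78.4 (71.6 to 90.5), with quartiles of 58.2 and 130, and in the whole list 81.6. The intervals of the medians overlapped, and the order of the medians turned when weak peaks were left out. It was 131 against 159 for peaks with a score of at least 100, and 110 against 134 for peaks at or above the median score of the list. Scores of 200 or more belonged to 2 of 35 peaks in the stretch, or 5.71%, to 13.4% of the peaks on the rest of the chromosome, and to 15.7% of the whole list. The Clopper-Pearson interval for the stretch, 0.70% to 19.2%, includes both other shares. Among peaks with a neighbour, the median score was 90.6 for the 31 in the stretch and 88.9 for the 56 elsewhere on the chromosome, whose highest score was 951.

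Median widths were similar. A larger share of the peaks in the stretch was wider than 750 bp, and a smaller share measured 501 to 750 bp. The median was 431 bp in the stretch (interval of the median 387 to 523 bp) and 436 bp on the rest of the chromosome (415 to 459 bp), with ranges of 276 to 966 bp and 218 to 1877 bp. The order of the medians turned for peaks with a score of at least 100 (776.5 against 572 bp) and with peaks within 1 kb merged (562 against 440 bp). Peaks wider than 750 bp made up 22.9% of the stretch (8 of 35), 10.1% of the rest of the chromosome and 8.26% of the whole list. Those of 501 to 750 bp made up 14.3% (5 of 35), 24.7% and 23.9%, so the excess depends on the cut at 750 bp. No peak of the stretch was over 1000 bp, but such peaks were rare everywhere, with 4.05% of the rest of the chromosome and 2.91% of the whole list.

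Wide peaks of the stretch had low scores for their width. The 8 peaks of 751 to 1000 bp had scores from 104 to 202 and a median of 161. The 15 peaks of this width on the rest of the chromosome had a median of 252 and the 318 of the whole list one of 293, with quartiles of 175 and 504. A score above the highest of the 8 was listed for 211 of the 318 (66.4%). The 5 peaks of 501 to 750 bp in the stretch had a median of 114, against 118 on the rest of the chromosome and 150 in the list. For narrow peaks the order was the other way round, with 68.7 for the 14 peaks of 301 to 400 bp against 59.3 and 61.9. Scores and widths rose together in both sets, with Spearman's rho of 0.88 over 35 peaks and 0.74 over 247. All these peaks come from 1 library, so the coefficients only describe the list, and whether the way the caller computes its score contributes to them was not tested.

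**Figure D4:**
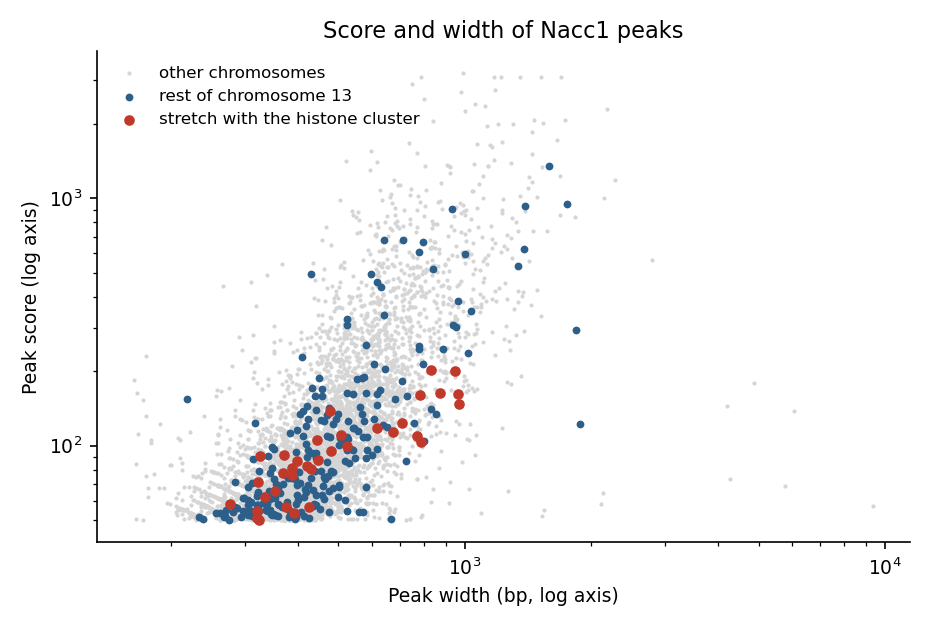
Score (y axis, log scale) against width in bp (x axis, log scale) for the peaks of the stretch, of the rest of chromosome 13 and of the other chromosomes, with 1 point per peak. The 8 peaks of the stretch wider than 750 bp have scores from 104 to 202, in the lower part of the points of the same width.

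A second crowded window of the chromosome, from 96 to 99 Mb, was the most like the stretch in number, with 32 peaks. Its median score, 88.2, was close to that of the stretch, but its highest score was 677. Of its peaks, 14 had a neighbour within 10 kb (43.8%). Its 7 groups were all pairs. A similar number of peaks in the same length of chromosome was thus laid out in pairs and single peaks there, and in longer groups in the stretch.

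The edges of the stretch lay in intervals without peaks. The last peak before it, at chr13:13619626-13621004, had a score of 627 and was 7642 kb from the first peak inside. The last peak inside, at chr13:23853529-23854299, had a score of 109, and the next, at chr13:25142138-25142587, a score of 188 at a distance of 1288 kb. Shifting either edge within these intervals changes the length of the stretch and not its 35 peaks.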

How the data were processed

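The submitters' processing notes name the build mm9 and the tools MACS 1.4, Bowtie2, SAMtools and CASAVA 1.8. They give no parameters, read filters or numbers of mapped reads, nor whether the input was the caller's control. The deposited peak list holds positions, names and, for each peak, a score. In the output format of MACS 1.4 this score equals -10 log10(p), and the lowest listed value is 50. Peaks were of 1 library, with no pooling recorded, and no depth could be attached to them.

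Starts were made 1-based. Peaks were assigned to the stretch by midpoint. Distances run from edge to edge, and groups join peaks at most 10 kb apart. The length of the chromosome was taken from its first to its last peak. Count intervals are exact Poisson, share intervals Clopper-Pearson, and those of medians use binomial order statistics, each at 95%. The members, the stretch and the lists were chosen with earlier results of these data known. Named regions were the 10 strongest and 3 widest peaks of the stretch, its groups of 3 or more, the 5 strongest peaks elsewhere on the chromosome, the peaks at the edges and the longest empty interval; pairs, lone peaks and the window from 96 to 99 Mb are named beyond this rule, with their values known. Histone genes were those of the GRCm38.p6 table with a symbol or synonym that starts with Hist1h, and only their order was used. The functions were tested on simulated data. Alternatives were score thresholds, merging, other edges and other neighbour distances. Scripts ran under Python 3.11.15 with SciPy 1.17.1, pandas 2.3.3 and NumPy 2.4.6, and Matplotlib 3.10.9 drew the figures.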

Additional observations from a re-analysis of the deposited data

How the results depend on the processing

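The density of the stretch (11.7 peaks per Mb), the short spacing (5.33 kb) and the share of peaks with a neighbour (88.6%) kept their direction against the rest of the chromosome in every alternative run. A score threshold of 100 leaves fewer peaks, 14 in the stretch, and gave 4.67 per Mb, a spacing of 18.1 kb and a share of 57.1%. At or above the median score, 21 peaks gave 7 per Mb and 14.1 kb. At a score of at least 150, added after seeing the data, 5 peaks gave 1.67 per Mb, 24.97 kb and 40.0%, against 0% on the rest of the chromosome. A stretch of 20 to 25 Mb, longer with the same peaks, gave 7 per Mb, and groups counted as 1 site, also added, 4.00 per Mb.

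The order of the medians turned for score and width. Against the rest of the chromosome, median scores in the stretch were lower at thresholds of 100 (131 against 159), the median score (110 against 134) and 150 (163 against 254). Median widths were larger at these thresholds, at 776.5, 618 and 874 bp, with peaks within 1 kb merged (562 bp), which widens peaks by construction, and with the stretch begun after its lone first peak (438 against 436 bp). Apart from merging, the cause was not tested. No library could be left out. No paired analysis was possible because each group has 1 sample and no result comes from a test.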
